A study of Drosophila melanogaster with 4 samples.

Results

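The regions described here are the H3-enriched regions of chromosome arm 3L, the left arm of the third chromosome of Drosophila melanogaster. They were chosen by position alone, as every line of the combined region list that lies on 3L. There were 3260 of them among 16757 combined regions in all. The study used chromatin immunoprecipitation followed by sequencing (ChIP-seq) to map histone H3 in nuclei from heads of mixed adult flies of the wild-type strain Oregon-R. All 4 libraries came from that one strain and stage: 2 ChIP libraries made with an antibody called H3 antibody3, and 2 Input libraries, which are chromatin sequenced without immunoprecipitation. Each ChIP library has its own region list, and the combined list stands for both together. The labels do not say whether the replicates came from separate fly cages, so the spread between them may be technical. A head holds many cell types, and the values are an average over them. A list without read counts does not allow a depth, so the precision of a single region is unknown.

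H3 is a core histone present in nearly every nucleosome, the unit around which DNA is wrapped. A region enriched over Input is therefore a place where H3 was recovered more often than the same DNA in sheared chromatin, and not a place that alone carries nucleosomes. Arm 3L runs from a telomere through gene-rich euchromatin to repeat-rich heterochromatin beside the centromere. Heterochromatin is compact, is known for the H3K9 methylation mark and the protein HP1, and is rich in repeats to which short reads are hard to assign. Part of the heterochromatin of this arm is held in a separate reference sequence, 3LHet.

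Arm 3L was 24.5 Mb long on release 5 of the fly genome and held 17.6% of the sequence that carried regions and 19.5% of the combined regions. Its combined regions covered 5.24 Mb, which is 21.3% of the arm, at 132.8 regions per Mb. The replicate lists held 473 and 515 regions on 3L (494 ± 29.7, SD, n = 2). They covered 3.03% and 3.35% of the arm (3.19% ± 0.231, SD, n = 2). The combined list thus held 6.60 times as many regions as the mean replicate list and 6.69 times as many bases. The first combined region began at 62914 and the last ended at 24528935, which left 62.9 kb without a region at the telomere end and 14.6 kb at the other end.

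Region lengths on 3L had a sharp lower edge and a long upper tail. The shortest combined region was 1001 bp, and 81 regions had that length. The median was 1423 bp, the middle 50% lay between 1154 and 1834 bp, and the longest region was 7379 bp. In the replicate lists no region was shorter than 1302 and 1301 bp, the medians were 1484 and 1507 bp, and the longest were 3016 and 3422 bp. The long tail was a feature of the combined list: 139 of its regions (4.26%) reached 3000 bp, against 1 region of replicate 1 and 4 regions of replicate 2. The longest 10% of combined regions held 19.5% of the summed length.

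**Figure D1:**
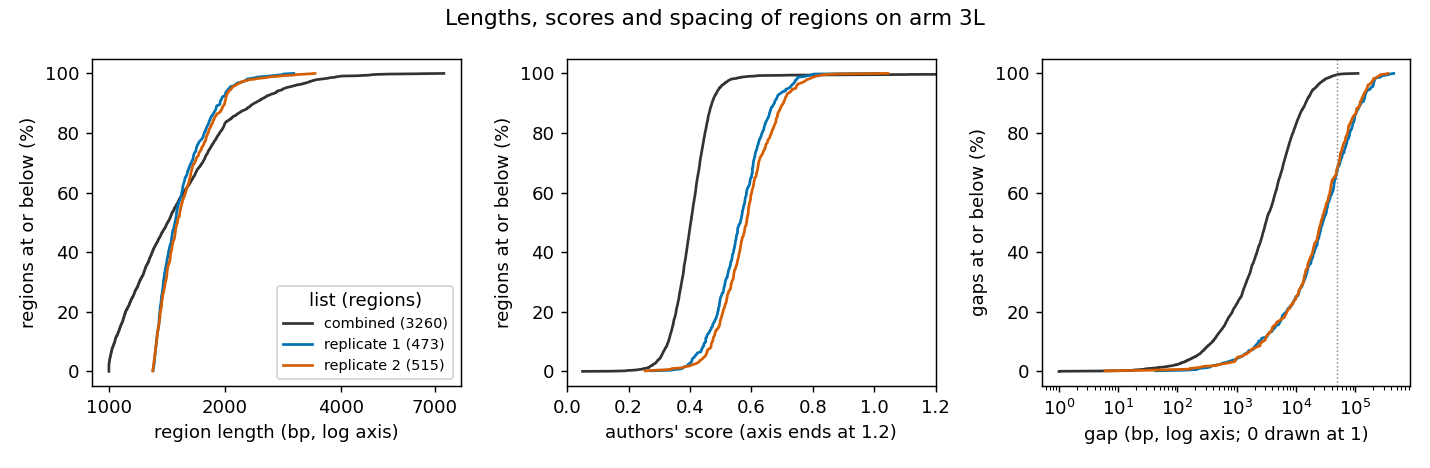
Cumulative share of 3L regions by length in bp (left, log axis), by the authors' score (middle, axis ended at 1.2) and by the gap to the next region in bp (right, log axis, dotted line at 50 kb), with 1 line per list. The combined list starts at 1001 bp and the replicate lists at 1302 and 1301 bp, and median gaps are 3109 bp against 28366 and 26362 bp.

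The score is the authors' own value for each region. Its scale is not stated, but distinct scores of at least 1 in the whole combined list differed by exactly 1 in 17 of 7021 pairs and by the log2 of 1.5 in 20 pairs, within 1e-07. None of those pairs differed by the natural log or the log10 of 2. Such spacing is that of a log2 scale, on which the median score of the combined 3L regions, 0.403, would stand for a ratio of 1.32. The replicate medians, 0.564 and 0.584 (0.574 ± 0.0140, SD, n = 2), would stand for ratios of 1.48 and 1.50. Scores varied little among members: the middle 50% of combined regions lay between 0.365 and 0.440, and 95% were at or below 0.496. The lowest score was 0.0501, at 1970023 to 1971415, and the highest 3.40, at 6222151 to 6223152.

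Length and score were almost unrelated in the combined list, though not evenly so. Over the 3260 combined regions Spearman's rho between them was -0.06, a description over regions that share the same libraries. In the replicate lists rho was 0.15 over 473 regions and 0.21 over 515. The 816 shortest combined regions, of 1001 to 1154 bp, had a median score of 0.424. The next 2 length classes had lower medians, 0.383 and 0.376, and the 812 longest regions, of 1835 bp and more, reached 0.420. Both ends of the length range thus scored above the middle.

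The regions with the highest scores were short and were met by no replicate region. On 3L 15 combined regions (0.460%) had a score of at least 1, against 1.55% of all combined regions. The share was lower on 2L, with 8 regions (0.267%), and on 3R, with 4 regions (0.0901%). The 15 on 3L were 1001 to 1097 bp long, and 0 of them touched a replicate region. That is near the share for short regions at large. Of the 816 shortest 3L regions, of 1001 to 1154 bp, 95.8% met neither replicate list. The next lower score on 3L was 0.948, in a region of 1190 bp. The 5 highest were 3.40 at 6222151 to 6223152, 2.89 at 24175332 to 24176402, 2.67 at 24136018 to 24137018, 2.54 at 13568374 to 13569374 and 2.08 at 5455033 to 5456033. A sixth region, 24448333 to 24449333, tied the last of these to all its digits. Of the 15 regions 8 lay in the last 7.47% of the arm, beyond 22.71 Mb.

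Of the 5 longest regions 4 were met by both replicates. So were 22.3% of the 139 regions of at least 3000 bp and 2.85% of all combined regions on 3L. The longest was 22884398 to 22891776 (7379 bp, score 0.444), which met 3 replicate 1 regions and 1 replicate 2 region. Next came 13629767 to 13637019 (7253 bp, score 0.465), which met 3 and 2 regions. The region 17376886 to 17383914 (7029 bp, score 0.452) met 1 and 2, and 13558153 to 13564555 (6403 bp, score 0.483) met 1 and 2. The fifth, 13710360 to 13716753 (6394 bp, score 0.406), met 0 regions of either replicate list. Of these 5 regions 3 lay within 158.6 kb in the middle of the arm.

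**Figure D2:**
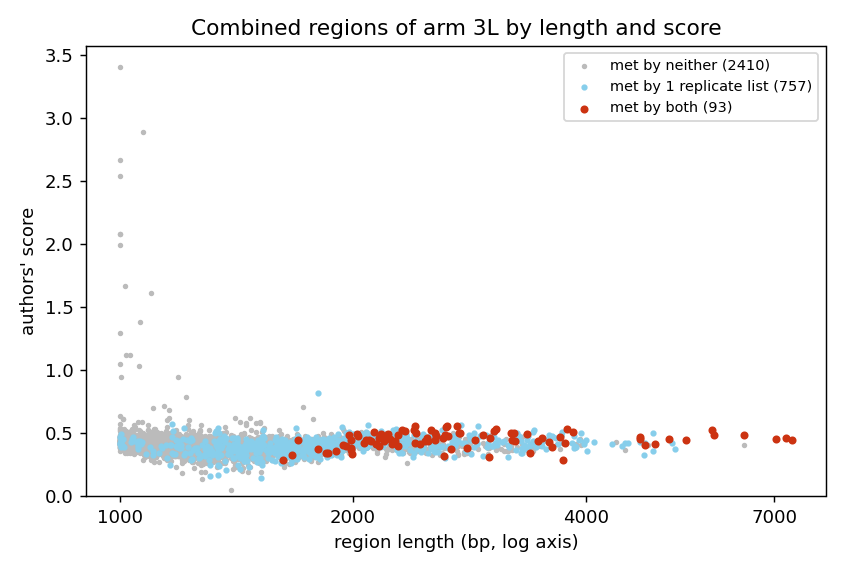
Each point is a combined region of 3L by its length in bp (log axis) and the authors' score, coloured by whether a region of neither, 1 or both replicate lists shares at least 1 bp with it. The 15 regions with scores of at least 1 are all under 1100 bp and met by neither, while the 93 regions met by both are 2552 bp long at the median.

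The replicates shared a minority of their 3L regions. Of the replicate 1 regions 91 of 473 (19.2%, exact 95% interval 15.8% to 23.1%, counting error only) met a replicate 2 region by at least 1 bp, against 19.1% over all sequences. Of the replicate 2 regions 90 of 515 (17.5%, 14.3% to 21.0%) met one of replicate 1, against 15.8% over all sequences. Both 3L shares were near those backgrounds. The 93 overlapping pairs had a median of 1187 bp in common, and their midpoints lay 347.5 bp apart at the median. The pair with the most bases in common, 1946 bp, spanned 24457641 to 24459586, close to the centromere-side end, where its scores were only 0.395 and 0.341.

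Nearly every replicate region on 3L lay in the combined list, which was made from the same libraries. Of replicate 1 regions 460 (97.3%) met a combined region, against 96.4% over all sequences. Of replicate 2 regions 493 (95.7%) did, against 96.5%. The 13 and 22 replicate regions outside the combined list had median scores of 0.579 and 0.558, beside 0.562 and 0.585 for those inside. The replicate 2 region with the highest score on 3L, 1.04 at 24171330 to 24172838, was one of these. It lay under 3 kb from the combined region with the second highest score without touching it. The replicate 1 maximum, 1.01 at 23036227 to 23037691, met a combined region and no replicate 2 region.

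Seen from the combined list, 93 regions of 3L (2.85%) met both replicate lists, against 2.80% over all sequences. Another 358 overlapped replicate 1 alone and 399 replicate 2 alone. The remaining 2410 (73.9%) overlapped neither list, against 73.6% over all sequences. In all, 13.8% of 3L regions met replicate 1 and 15.1% met replicate 2, against 13.2% and 16.0% over all sequences. These shares were again near the background. They moved strongly with length: 95.8% of the shortest class of 3L regions met neither replicate, 86.0% of the second, 70.0% of the third and 43.7% of the longest. Longer regions offer more bases to meet, and the part of this in the trend was not tested. Of the 139 regions of at least 3000 bp 31 met both lists. Of the 815 regions in the highest score class 59 met both, and of the 815 in the lowest 10 did.

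The 5 regions with the highest scores among those met by both replicates lay in the telomere-side part of the arm or its middle. They were 5874748 to 5877156 (score 0.556), 2713035 to 2715679 (0.554), 659052 to 661776 (0.553), 4481996 to 4484637 (0.551) and 13679330 to 13682394 (0.532). All were between 2409 and 3065 bp long and met exactly 1 region of each replicate list. The last of them held the third highest replicate 1 score on the arm, 0.797 at 13680283 to 13681602.

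Spacing on 3L was uneven at short range. The gap between neighbouring combined regions was 3109 bp at the median, 1182 bp at the lower and 7352 bp at the upper quartile. Of the 3259 gaps 421 (12.9%) were under 500 bp and 2 were 0 bp, that is, regions that touch but were listed apart. In the replicate lists the median gaps were 28366 and 26362 bp (27364 ± 1417, SD, n = 2), and 10 and 11 gaps were under 500 bp. Joining regions less than 1 kb apart into chains left 1955 regions (60.0%) single, while 1305 (40.0%) fell into 569 chains of 2 or more. On 2L 39.3% and on 3R 44.0% of combined regions were in such chains. These differences were not tested.

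Long chains were rare. Only 27 chains on 3L had 4 or more regions, and these held 3.53% of the members. The largest chain had 7 regions over 14.7 kb, from 4775934 to 4790665, with 85.1% of its span covered and scores of 0.322 to 0.516. Next were 4 chains of 5 regions, of which the longest spanned 5840074 to 5853666 (13.6 kb, 86.1% covered). The others were 22910056 to 22920293, 13447015 to 13455637 and 9593330 to 9601368. The 7-region chain and the 5-region chain at 5840074 each met 1 region of each replicate list.

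At the scale of 100 kb windows, the covered share of 3L in the combined list ranged from 1.66% to 57.9% over 245 windows. The median window was 20.5% covered, and 80% of windows lay between 9.82% and 34.1%. There were 12 windows at or above 40% and 28 below 10%. Between adjacent windows Pearson's r was 0.497 in the combined list, 0.187 in replicate 1 and 0.197 in replicate 2 (n = 244 pairs, a description). Replicate lists left 44 and 40 windows empty, 15 of them in both lists. Those 15 windows were 9.16% covered at the median in the combined list, and the 176 windows with regions of both replicates were 23.3% covered.

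The replicate lists were more alike at coarse than at fine scale. Between replicate lists, r was 0.267 in windows of 25 kb (n = 981), 0.381 at 100 kb (n = 245) and 0.496 at 250 kb (n = 98), with Spearman's rho of 0.251, 0.369 and 0.513. These are descriptions across windows of one arm, which are not independent and carry the same calling.

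**Figure D3:**
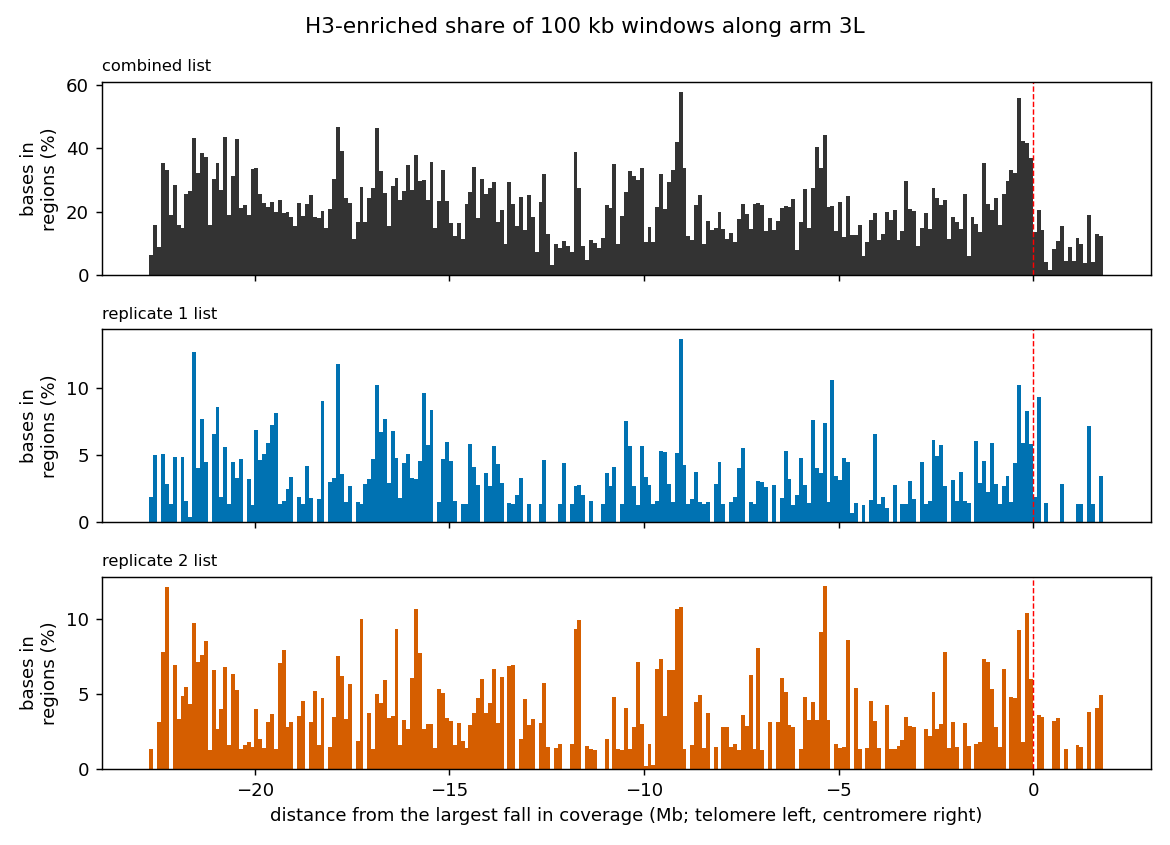
Share of bases in enriched regions (%) in 100 kb windows along 3L for the combined, replicate 1 and replicate 2 lists, plotted by distance in Mb from the largest fall in coverage (dashed line). The combined list peaks at 57.9% in mid-arm and at 55.9% just before the fall, and no window that starts past the fall exceeds 20.5%.

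The densest windows were far apart and exceeded the arm-wide share in each list. Window 13600001 to 13700000 was 57.9% covered in the combined list, 13.7% in replicate 1 and 10.8% in replicate 2. Window 22300001 to 22400000 followed with 55.9%, 10.3% and 9.26%. Windows 4800001 to 4900000 (46.8%, 11.8% and 7.54%), 5800001 to 5900000 (46.5%, 10.3% and 5.02%) and 17300001 to 17400000 (44.1%, 7.45% and 12.2%) completed the first 5. Each of these replicate values exceeded the arm-wide replicate share of 3.03% or 3.35%, and 13.7% and 12.2% were the highest of any 100 kb window in their lists. The 5.02% was exceeded in replicate 2 by windows less covered in the combined list, such as 6800001 to 6900000 (10.7%). The windows were picked in the combined list, which was made from the same libraries, so the replicate values are not separate evidence.

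The mid-arm cluster was the longest unbroken dense run. From 13525001 to 13725000, 8 successive 25 kb windows were each at least 40% covered. Over those 200 kb the combined list covered 54.6% and the replicates 10.6% and 10.5%. Its 45 combined regions were 1839 bp long at the median and 1212.5 bp apart, against 1423 and 3109 bp over the whole arm. The scores were not far from those of the arm, with a median of 0.422 against 0.403. The edge on the centromere side was steep. The 250 kb up to 13.78 Mb were 51.1% covered and the next 250 kb 12.7%, the largest such fall on the arm at that scale. A gap of 53741 bp without a region followed at 13848404 to 13902144.

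The second such run lay at 22300001 to 22450000, where 6 successive 25 kb windows were 53.4% covered together. Only these 2 runs were 4 or more windows long. In all, 97 of the 981 windows of 25 kb (9.89%) reached 40%, in 66 runs.

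The longest sparse stretches lay within the arm and at its centromere side. Within the arm, the sparsest 15 successive windows of 100 kb, from 10200001 to 11700000, were 12.2% covered in the combined list and 1.17% and 1.98% in the replicates. It was broken by a dense island, the windows 10900001 to 11000000 and 11000001 to 11100000, at 38.7% and 27.5%. In replicate 2 these windows were 9.34% and 9.98% covered, above its arm-wide 3.35%. In replicate 1 they were 2.73% and 2.76% covered, below its arm-wide 3.03%. The sparsest window of the stretch was 10300001 to 10400000 at 3.08%, with 0 bases in either replicate list, and the longest run of 25 kb windows under 10% on the arm, 10275001 to 10450000, surrounded it.

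Gaps of at least 50 kb between combined regions, called deserts here, numbered 14 on 3L and summed to 0.916 Mb, 3.73% of the arm. On 2L there were also 14, summing to 1.09 Mb, and on 3R there were 2, summing to 0.116 Mb. The longest on 3L was 23104149 to 23215468 (111320 bp), followed by 11206922 to 11296463 (89542 bp), 23672065 to 23757988 (85924 bp), 22961174 to 23036186 (75013 bp) and 24188667 to 24254405 (65739 bp). The replicate lists placed 0 bases in any of the 14. This was largely set in advance, since 97.3% and 95.7% of replicate regions met the combined list, which defines the deserts. The shortest desert was 50114 bp and the longest gap just under the limit 49485 bp.

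The largest fall of covered share along 3L was at 22.71 Mb, with flanks of 500 kb compared every 10 kb. The 500 kb before it were 42.0% covered and the 500 kb after it 9.89%, a difference of 32.1 percentage points. The next largest fall elsewhere on the arm, at 13.85 Mb, was 24.4 points. With flanks of 1 Mb the place moved to 22.93 Mb (34.2% against 7.54%), and replicate 1 (22.90 Mb, 5.36% against 0.572%) and replicate 2 (22.97 Mb, 4.89% against 0.958%) had their largest falls beside it. In replicate 2 that fall, 3.93 points, was all but equalled at 14.14 Mb (5.65% against 1.72%). With flanks of 500 kb replicate 1 had its largest fall at 22.90 Mb (6.26% against 0.293%). Replicate 2 had it at 17.45 Mb (6.85% against 0.910%, 5.94 points), and its largest fall within 300 kb of the combined one was 5.04 points, at 22.67 Mb. The sharpest place thus depended on the list and the flank. At flanks of 500 kb and 1 Mb a fall lay between 22.67 and 22.97 Mb in all 3 lists. The replicate 2 place at 500 kb came from a search confined to 300 kb around the combined fall. With flanks of 250 kb the largest combined fall was at 13.78 Mb (38.4 points). Within 300 kb of 22.71 Mb the largest at that scale was at 22.60 Mb (23.8 points), and in replicate 1 at 22.55 Mb.

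In windows of 25 kb the change had 2 steps with an island between them. Coverage was already uneven before the first step, with 18.1% in window 22550001 to 22575000 and 16.1% in 22600001 to 22625000. From 22625001 to 22675000 the combined list covered 55.2%. Window 22675001 to 22700000 was 20.7% covered, with 0 bases of either replicate list, and 22700001 to 22725000 was 36.8% covered. The next 5 windows, 22725001 to 22850000, were 3.54% covered together and held 0 bases of either replicate list. Coverage then returned: window 22850001 to 22875000 was 30.0% covered, 22875001 to 22900000 was 51.9% and 22900001 to 22925000 was 37.3%. Replicate 1 covered 25.3% and replicate 2 14.5% of the middle one, which holds the longest region of the arm. The second step followed at once, with 10.9% and 9.12% in the next 2 windows and 0% in the 2 after them.

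The last region before the open stretch was 22960173 to 22961173, 1001 bp long with a score of 0.415. A desert of 75013 bp followed. The first region beyond it, 23036187 to 23037988, had a score of 0.815 and met the replicate 1 region with the highest score on the arm. Between that region and 23215468 the combined list held only 3 more regions. In the 500 kb that began at 22961174, 3 deserts took up 47.4%. That stretch was set to start at the first base of a desert, which raises the share.

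**Figure D4:**
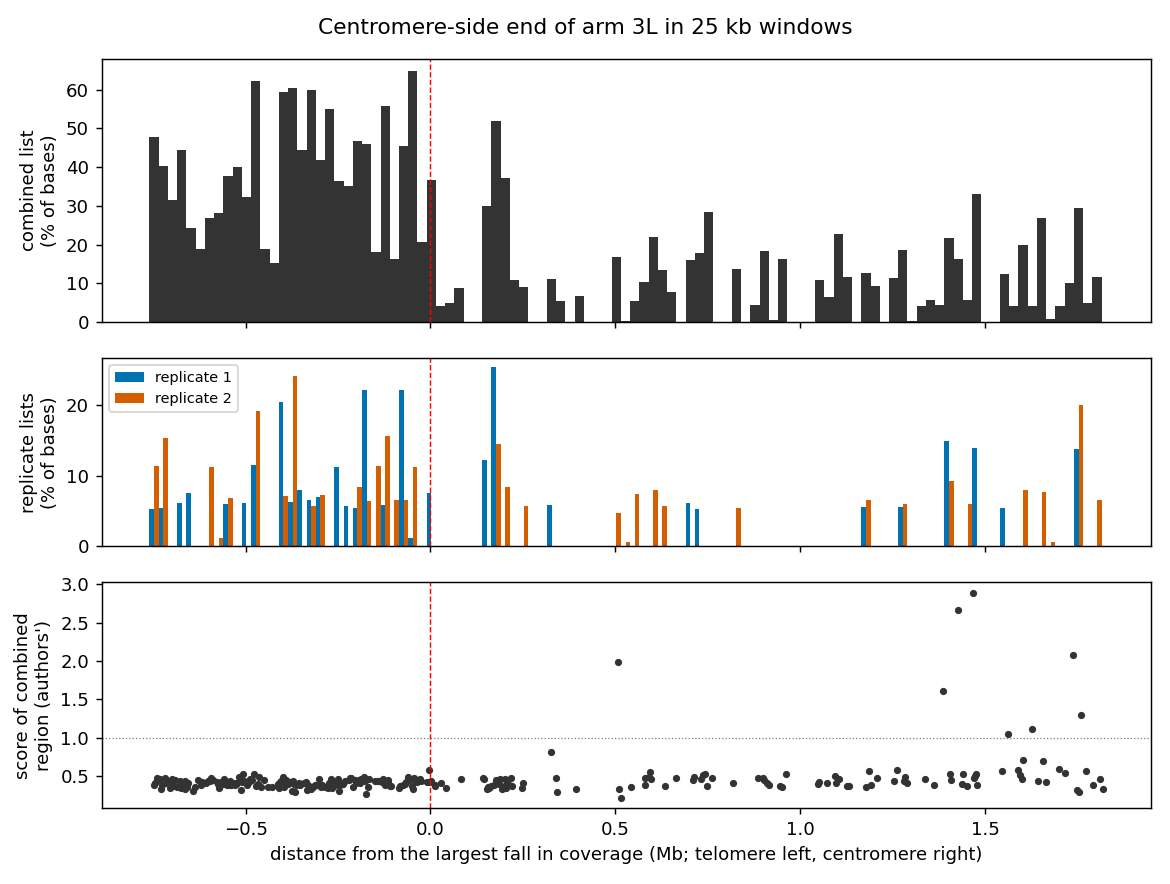
Centromere-side end of 3L in 25 kb windows: share of bases (%) in the combined list (top), in both replicate lists (middle), and the authors' score of each combined region (bottom, dotted line at 1), by distance in Mb from the fall at 22.71 Mb. An island 51.9% covered stands between 2 steps, and 8 regions past the fall score at least 1.

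Past the second step 3L was sparser than the rest of the arm, though not evenly so. From 22961174 to 24543557, 1.58 Mb, the combined list held 82 regions, 51.8 per Mb, over 8.58% of the bases. The 500 kb before the fall held 206 regions per Mb, and the whole arm up to it 138.7. The median length was 1431.5 bp past the second step, 1820 bp in the 500 kb before the fall and 1424 bp over the whole arm up to it. Window 24100001 to 24200000 was the densest 100 kb past the second step, at 19.1% in the combined list, 7.20% in replicate 1 and 3.80% in replicate 2. The replicates covered 1.21% and 1.61% of that last stretch, against 6.64% and 6.46% of the 500 kb before the fall. Over everything past 22.71 Mb the covered share was 0.439 times that before it in the combined list, 0.528 times in replicate 1 and 0.512 times in replicate 2 (0.520 ± 0.0110, SD, n = 2). The arm up to 22.71 Mb was 22.3% covered as a whole. The fall was preceded by a rise, since the 2 Mb before it were 26.6% covered and the last 500 kb of these 42.0%.

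Deserts and high scores gathered in the same end. Of the 14 deserts 8 lay past 22.71 Mb, with 61.6% of all desert bases, in 7.47% of the arm. That place was picked as the largest fall of the same list, so part of this was set in advance. The longest stretches without a replicate region were there too: 23448938 to 23894420 (445.5 kb) in replicate 1, which held 23 combined regions, and 23530363 to 23887424 (357.1 kb) in replicate 2, which held 18. The median combined score was 0.464 past the second step and 0.402 before the fall. In replicate 1 the medians were 0.720 (12 regions) and 0.559, and in replicate 2 0.598 (15 regions) and 0.584. Of the 82 regions past the second step 8 (9.76%) scored at least 1, against 7 of 3151 before the fall. The share met by neither replicate was 74.4% past the second step, close to the 73.9% of the whole arm. Of those 82 regions 4 (4.88%) met both replicate lists, against 2.85% of the whole arm and 2.80% over all sequences.

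In the combined list the end of 3L had values near those of 3LHet, the heterochromatic sequence of the same arm. There, 123 combined regions covered 7.40%, the median gap was 11526 bp and 14 regions (11.4%) scored at least 1. Past the second step of 3L the covered share was 8.58%, the median gap 10428 bp and the share of high scores 9.76%. The replicate lists were less alike. They covered 0.768% and 1.24% of 3LHet with 12 and 20 regions, and 1.21% and 1.61% of the end of 3L with 12 and 15. Of these regions 2 and 4 scored at least 1 on 3LHet, and 1 and 1 at the end of 3L. Neither sequence has more than 1 value per library, so a difference between them was not tested.

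The telomere side showed little change between its first and second 500 kb, but it changed within the first. The first 500 kb of 3L were 19.9% covered and the second 20.7%, although the first region began only at 62914 and the 4 windows of 25 kb from 75001 to 175000 were 7.64% covered together. Windows 1 to 100000, 100001 to 200000 and 200001 to 300000 were 6.18%, 15.8% and 8.8% covered. Windows 300001 to 400000 and 400001 to 500000 rose to 35.3% and 33.1%. The scan with flanks of 500 kb cannot place a change inside the first 500 kb. Scores over 1 were absent from the first 3.6 Mb, and the first such region was 3601155 to 3602213 (1.03).

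Beside 2L and 3R, the regions of 3L were alike in median length and median score and closer to 2L in spacing. Median length was 1423 bp on 3L, 1418 bp on 2L and 1454 bp on 3R, and median score 0.403, 0.405 and 0.403. The median gap was 3109, 3188 and 2747 bp. On 2L the largest fall toward the centromere at flanks of 500 kb was at 1.52 Mb (45.9% against 23.3%, 22.6 points), near its telomere end. On 3R it was at 3.95 Mb from its centromere-side start (36.0% against 16.8%, 19.2 points). The fall on 3L, 32.1 points at 1.83 Mb from the end of its sequence, was larger than both in the combined list. In replicate 1 the largest falls anywhere on 3L, 2L and 3R were 5.97 points (22.90 Mb), 4.19 (3.68 Mb) and 4.78 (23.14 Mb). In replicate 2 they were 5.94 points (17.45 Mb), 5.17 (1.52 Mb) and 6.70 (25.04 Mb). Of these 6 falls 4 lay elsewhere than the combined fall of their arm, so they are not replicate values of it. The differences between arms were not tested.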

How the data were processed

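Region lists from 2 H3 ChIP libraries of Oregon-R heads were examined, and the 2 Input libraries entered through the authors' calling alone. The authors deposited 1 list per ChIP replicate and 1 for both, with a start, an end and a score per region, on a score scale that is not stated. Coordinates are 1-based on FlyBase release 5, per the file headers. The submitters' processing notes name Bowtie 0.12.7. The region caller used, with its limits and the depth of sequencing, is not given in the sources used here.

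Covered shares, gaps, chains, windows and overlaps of at least 1 bp were computed for 3L in each list. Falls are differences in covered share between flanks of 500 kb in steps of 10 kb. Exact 95% intervals are Clopper-Pearson. Regions, gaps, windows and chains were named as the 5 most extreme of each kind. Members and rules were chosen with earlier results of these data known. Arms and stretches were not tested against each other, since a pair of ChIP libraries gives too few values for a test to pass a threshold. Genes and sequence were not used here, because the gene table at hand is on release 6. Scans and overlaps were tested on simulated data. For the scan, simulated regions had random places with a single planted fall, at flanks of 500 kb, and lacked the clusters of the arm. That check does not show that the scan places the fall in clustered data. Alternatives were score and length limits, joined regions, other flanks and windows, a stricter overlap and each replicate list. The tools were Python 3.11.15 with pandas 2.3.3, numpy 2.4.6, matplotlib 3.10.9 and scipy 1.17.1.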

Additional observations from a re-analysis of the deposited data

How the results depend on the processing

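With scores at or above the median, 1630 combined regions covered 10.9% of 3L, with a median gap of 7399 bp, 75 gaps of at least 50 kb, a largest fall of 22.7 points and 12.2% of replicate 1 regions meeting replicate 2. By construction, fewer regions leave less covered. Regions of at least 1500 bp numbered 1432 and covered 12.4%. The replicate 1 and replicate 2 lists in place of the combined one covered 3.03% and 3.35%, with median lengths of 1484 and 1507 bp, median scores of 0.564 and 0.584, and largest falls of 5.97 and 5.94 points. The place of the largest fall moved from 22.71 Mb to 13.78 Mb with flanks of 250 kb and to 17.45 Mb in the replicate 2 list, and the cause was not tested. Gaps of at least 30 kb numbered 70. An overlap of 50% of both regions lowered the replicate 1 share to 14.4%. The replicate correlation was 0.370 in windows of 50 kb, 0.496 in windows of 250 kb and 0.367 without the stretch past the fall. Moving windows by 50 kb gave 56.0% in the densest one. Leaving out one replicate gave 3.03% to 3.35% for the replicate mean. Chosen after seeing the data, the ratio of covered share past the fall to that before it was 0.559 at or above the median score. Joining regions closer than 500 bp left 2839 regions. No paired analysis was possible because only ChIP libraries have lists, and the Input libraries that share their replicate numbers have none here. Depth is unknown, so a place without a region is not shown to lack enrichment.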

Other observations

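Scores on 3L took repeated values. Of the 3260 combined regions 1330 shared their score, to 10 decimals, with at least 1 other region of the arm, and 30 regions had the commonest score, 0.405. The highest score on the arm, 3.40, exceeded that commonest score by 3 to within 1e-06, which is a ratio of 8 on a log2 scale. For the 15 regions with scores of at least 1, the same ratio to the commonest score was a multiple of 0.2, within 1e-06, in 8, among them 5.6, 4.8, 4.4, 3.2, 3.0 and 2.4. Of the 3245 regions with lower scores 30 had such a ratio, and these are the 30 regions at the commonest score itself, where the ratio is 1. Those lower scores ran only from 0.0501 to 0.948, so few multiples of 0.2 were within their reach. The shares of the high and the lower scores are therefore not a like contrast. Reads per region are not used here, so whether the highest scores rest on few reads was not tested.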
